A study of Mus musculus with 11 samples.

Results

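Of the 178 genes in the deposited table of gingival epithelium, 86 had a mean normalised count with the ligature in place at or under 0.76 of the naive mean (1 added to each mean). The 55 genes described here are those 86 without 31 that were left out by name, among them Fos, Fosb, Atf3, Hbegf, the beta-defensins and the heat shock chaperones. They comprise 49 named genes and 6 predicted gene models or Rik clones. The epithelium came from B6 mice labelled as male, in 3 groups. Naive mice had no ligature (n = 4 libraries). In the ligature group a silk thread around both upper second molars was left in place to induce periodontitis (n = 3). In the removal group the thread was taken off on day 3 (n = 4). No genetic change or drug is named for any group, the gum was treated with Dispase and its epithelium peeled off in all of them, and the labels do not give the day of collection. The 55 genes were selected on their ligature and naive counts, so that comparison is given here as a description, and the tests concern the removal libraries.

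Many of these genes belong to the early transcriptional response of epithelial cells. Growth factors, mechanical stretch and wounding switch such genes on within minutes, through kinases that act on factors already bound at their promoters, among them serum response factor and CREB. The products include the Jun proteins, which pair with each other or with Fos proteins to form the transcription factor AP-1, and proteins that end the response by destroying messenger RNA, removing phosphate from kinases or holding back the cell cycle. The transcripts are short-lived, so that their level follows recent transcription closely.

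In edgeR, 151 of the 176 genes tested had an unadjusted p under 0.05 for ligature against naive. The genes seem to have been picked for such differences, and counts of called genes are read against the share of the table called by the same rule and not against the transcriptome. The counts of the table summed to 282274 to 503570 per library. The deposited batch correction treated the libraries as 2 sets. Set B consisted of removal replicate 1, both of ligature replicates 2 and 3, and the naive libraries numbered 3 and 4; the other 6 libraries formed set A. Removal replicate 1 was thus the only removal library of set B. It was the lowest removal library for 29 of the 55 genes and for 82 of the 178 in the table. It alone had counts of the Y-linked gene Usp9y, 30 against 0 in each of the other 10 libraries. This does not bear out the male label for those 10. Of marker lists for 10 cell types the table held Cd68 (a member), the suprabasal keratin gene Krt10 and the salivary gene Smr2. It held none of the neutrophil, T cell, fibroblast or endothelial markers. Smr2 had normalised counts near the floor, 0 in the naive, 1.86 to 4.26 in the ligature and 0 to 7.82 in the removal libraries. Its highest removal library was removal replicate 1. The makeup of the tissue could not be checked further. Fewer cells of a type and less RNA per cell cannot be told apart in such samples.

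Sequence at the start of these genes is shown first, because several of them carry, just upstream, a site at which CREB and related factors can bind. In the RefSeq promoter table of GRCm38.p6, 36 of the 55 genes had an entry, 40 entries in all, and the 250 bases before each start were searched on both strands. The cAMP response element TGACGTCA was found in 4 of the 40 (10%), against 508 of 32851 promoters of all genes (1.55%). All 4 were among the 15 genes with an entry that belong to a list of rapid-response genes. The serum response element known as the CArG box was found in 1 of the 40 (2.5%), in Zfp36, against 1.47% of all promoters. The windows below show these 5 sites 5′ to 3′ on the strand of the gene, with up to 30 bases on each side of the site and the site in capitals. The Btg2 window lies at chr1:134079284-134079351 (minus strand), that of Dusp1 at chr17:26508578-26508645 (minus), Plk2 at chr13:110394952-110395019 (plus), Ppp1r15a at chr7:45526269-45526310 (minus, cut at the transcription start) and Zfp36 at chr7:28379247-28379316 (minus).
Btg2: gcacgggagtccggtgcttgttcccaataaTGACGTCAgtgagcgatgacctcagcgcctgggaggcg
Dusp1: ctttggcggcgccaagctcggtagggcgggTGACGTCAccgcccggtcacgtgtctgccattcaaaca
Plk2: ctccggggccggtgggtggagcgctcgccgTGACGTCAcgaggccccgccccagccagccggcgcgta
Ppp1r15a: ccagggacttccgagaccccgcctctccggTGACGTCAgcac
Zfp36: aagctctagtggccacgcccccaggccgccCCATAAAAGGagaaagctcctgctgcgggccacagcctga

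The other motifs were not more frequent than in promoters at large. The AP-1 site TGANTCA, whose letters do not occur inside a cAMP response element, was found in 1 of the 40 member promoters (2.5%, Cd68) against 6.75% of all. The heat shock element GAANNTTC was found in 2 (5%, Jun and Ppp1r10) against 6.69%, and the NF-kappaB motif in 0 against 5.93%. A match is a match of letters and was not tested for binding, and sites farther away were not searched.

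With the ligature in place the 55 genes stood at a median of 43.1% below the naive mean, and their ratios to naive ran from 0.0413 (Fam71a) to 0.749 (Wee1). In 46 of the 55 every ligature library was below every naive library, as in 48.3% of the table, and nothing is read from this because the same libraries chose the genes. Members just inside the threshold were Ripor3 (ratio 0.740), Tob1 (0.741) and Wee1 (0.749); just outside were Piezo1 (0.764), Tle4 (0.767) and Pprc1 (0.767). The fitted median log2 fold change of the members was -0.81, against -0.38 for the table. With TMM factors computed over the table these medians were -0.45 and -0.022, so every level here is relative to the deposited scale.

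**Figure D1:**
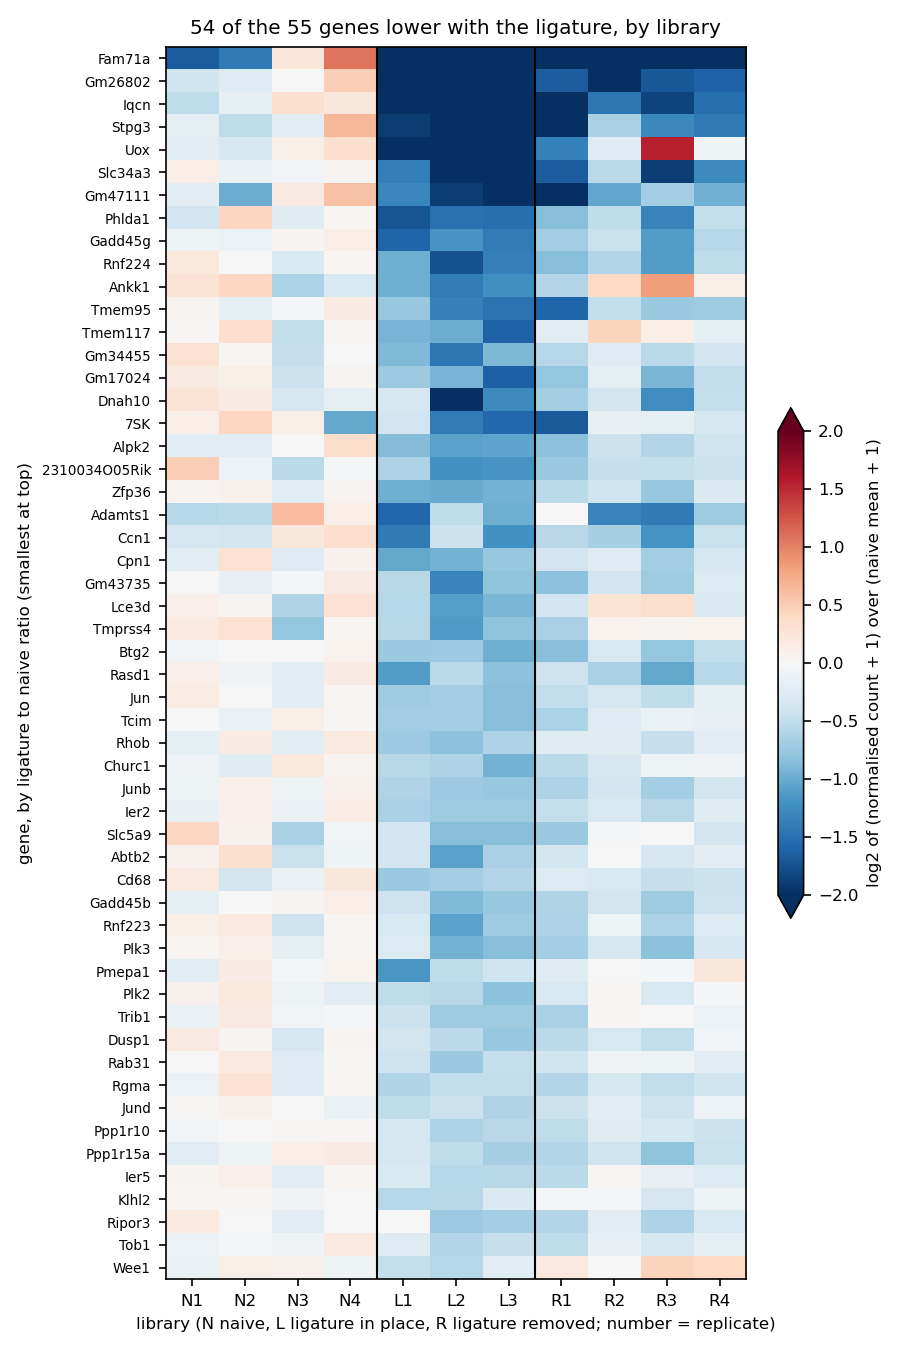
Each row is 1 gene (54 of the 55 are drawn), ordered by the ratio of ligature to naive, and each column 1 library; colour gives the log2 of the normalised count plus 1 over the naive mean plus 1. The 3 ligature columns are blue throughout most rows, which is how the genes were chosen, and the 4 removal columns are paler. Removal replicates 1 and 3 were the lowest of the 4 for 29 and 24 of the 55 genes. Over the table, removal replicate 1 was the lowest for 82 of the 178.

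After removal most of the 55 genes lay between the ligature and the naive level. Their means were a median of 26.2% below naive. Of the 55, 50 stayed below the naive mean, as did 105 of the 178 genes of the table. Above the ligature mean were 54, the exception being Ppp1r15a, and 118 of the 178. The genes were chosen for ligature means under naive means, which favours both counts. Every removal library was below every naive library in 28 of the 55 (27.5% of the table), and every removal library was above every ligature library in 23 (23% of the table). On a scale where 0% is the ligature level and 100% the naive level, both as log2 of the mean plus 1, the median gene stood at 45.1%. This recovery share was below 0% in 1 gene, from 0% to 50% in 31, from 50% to 100% in 18 and at 100% or more in 5 (Lce3d, Tmem117, Uox, Ankk1 and Wee1). From the deposited batch-corrected values 3 genes stood at 100% or more.

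Against naive, 26 of the 55 genes were lower after removal and 0 higher in edgeR's quasi-likelihood test (adjusted p under 0.05), where 24.4% of the 176 table genes tested were called lower, 13.1% higher and 37.5% in either direction. The members' median log2 fold change was -0.44, against -0.17 for the table. With TMM factors 14 were lower and 1, Wee1, was higher. The table's calls moved from 23 higher and 43 lower to 50 higher and 22 lower. The distance from the members' median to the table's was -0.26 as against -0.27. Nothing is read from this, because a change of scaling moves all genes nearly alike and leaves that distance almost fixed. With library set as a term in the fit, 43 of the 55 were lower (48.9% of the table). The 17 added by that term were Stpg3, Dnah10, Adamts1, Ripor3, Rnf223, Cd68, Dusp1, Rhob, Tcim, Slc5a9, Abtb2, Ier5, Rab31, 7SK, Gm17024, Gm34455 and 2310034O05Rik; below, a call or its absence refers to the fit without the term unless stated. Of the 26 genes, 15 were called in each of the 11 fits that left out 1 library, and 12 of those also with TMM factors: Fam71a, Iqcn, Tmem95, Phlda1, Rnf224, Gadd45g, Btg2, Ppp1r15a, Gadd45b, Junb, Zfp36 and the predicted gene Gm26802. The count was 15 without removal replicate 3, 17 without naive replicate 4 and 19 without removal replicate 1. All 26 were lower within both library sets, with a median log2 difference of -0.49 in set A and -0.75 in set B. The same libraries made the calls, so this is a description and adds no independent support. Of all 55 members, 49 were lower than naive in both sets, which was not counted for the table. Removal replicate 1 is the only removal library of set B.

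Against ligature, 13 of the 55 were higher and 0 lower (edgeR adjusted p under 0.05), where 17% of the table was called higher, 2.84% lower and 19.9% in either direction. Their names were Uox, Ankk1, Tmem117, Lce3d, Phlda1, Gadd45g, Wee1, Pmepa1, Zfp36, Plk2, Tcim, Rhob and Jun. The members' median was 0.45, against 0.20 for the table, and with TMM factors 6 of the 13 calls were made (Uox, Ankk1, Tmem117, Lce3d, Wee1 and Zfp36). With library set as a term 15 were called higher (21% of the table), Adamts1 and Klhl2 besides the 13. All 13 were higher within both sets, with a median log2 difference of 0.77 in set A and 0.58 in set B. This too is a description, because the same libraries made the calls. Of all 55 members, 45 were higher than ligature in both sets, also not counted for the table. Ligature replicate 1 is the only ligature library of set A. Leaving out removal replicate 2 or 4, or ligature replicate 1 or 2, left 0 of the 13 calls, and leaving out ligature replicate 3 left 1 (Wee1), though each gene kept its sign. Without removal replicate 2 or 4, or ligature replicate 1 or 2, 0 of the 176 table genes were called, against 35 with all libraries. Without ligature replicate 3 the table had 3 calls. The loss of calls was thus not particular to the members. The naive and the ligature libraries that chose the genes enter these comparisons, which favours a lower value against naive and a higher one against ligature, and both comparisons share the removal libraries.

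Against the midpoint of naive and ligature, a contrast in which that choice enters on both sides, 0 of the 55 genes were called, as were 0 of the 176 in the table (0%; edgeR). At an unadjusted p under 0.05 there were 7 members and 28 genes of the table, and DESeq2 called 3 members higher, Uox, Ankk1 and Wee1, where it called 7.3% of the table in either direction. The members' median distance from the midpoint was -0.046 on the log2 scale. Of the 55 genes, 4 were called against both outer groups (Phlda1, Gadd45g, Zfp36 and Jun), 22 against naive alone, 9 against ligature alone and 20 against neither. These classes were not counted over the table, of which 37.5% was called against naive and 19.9% against ligature.

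**Figure D2:**
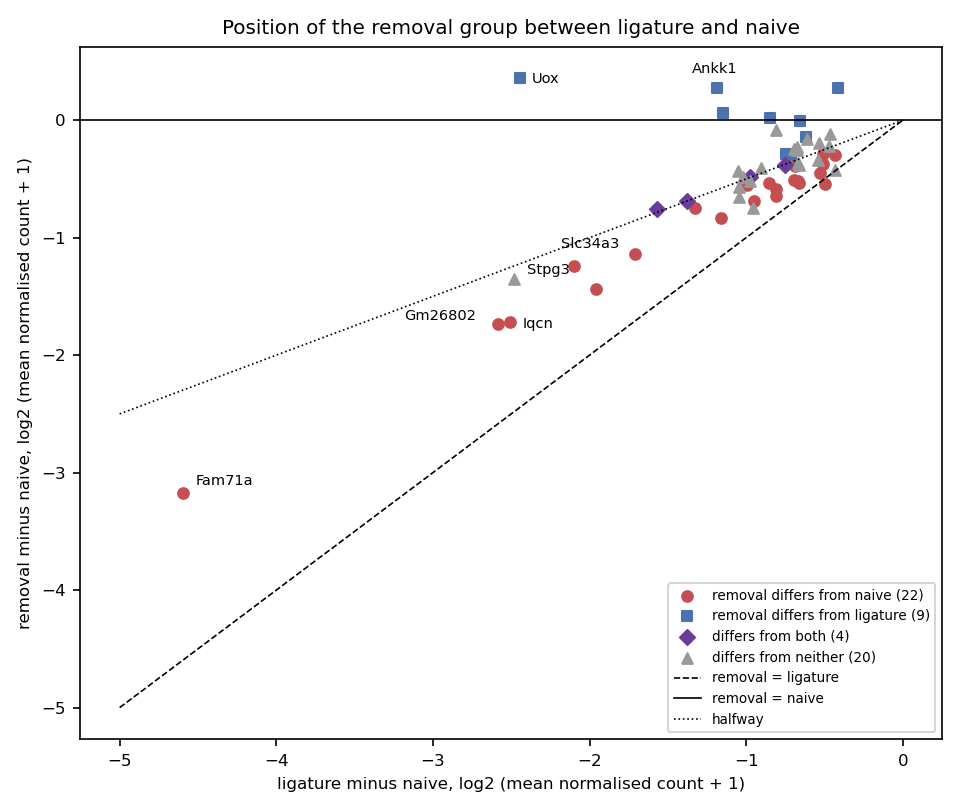
Each point is 1 gene; the horizontal axis is the log2 difference of ligature from naive and the vertical axis that of removal from naive, both from mean normalised counts plus 1, and colour and shape give the edgeR calls of the removal group. Points on the dashed line have not moved from the ligature level, points on the solid line are at the naive level, and most lie near the dotted line halfway between, with 5 genes above the solid line (Uox, Ankk1, Wee1, Tmem117 and Lce3d) and Fam71a lowest.

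The AP-1 subunits Jun, Junb and Jund were all lower after removal than in naive epithelium, and Jun was also higher than with the ligature. Jun (ENSMUSG00000052684), the subunit that also forms dimers with itself, read 19884, 18142, 15606 and 18409.8 normalised counts in naive replicates 1 to 4, 11021, 11082 and 9943 in the ligature libraries and 12834, 14148, 12684 and 15696 in the removal libraries. All ligature libraries lay under all removal libraries, and removal replicate 4 reached just above the lowest naive library. Its log2 fold change was -0.38 ± 0.11 (SE, adjusted p = 0.0169 by edgeR) against naive and 0.37 ± 0.12 (SE, adjusted p = 0.0352 by edgeR) against ligature. With TMM factors the value against naive was -0.18, not called, and the call was also lost without naive replicate 1 or removal replicate 3 (range over the 11 fits -0.45 to -0.33).

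Junb (ENSMUSG00000052837), a subunit known for restraining growth in the epidermis, read 9661, 11155, 9799 and 11023 in the naive, 6825, 6313 and 6180.4 in the ligature and 6788, 7964, 6514 and 8065 in the removal libraries. All removal libraries lay under all naive ones, and removal replicates 1 and 3 fell inside the ligature range. Against naive its log2 fold change was -0.51 ± 0.10 (SE, adjusted p = 0.00778 by edgeR), against ligature 0.19 ± 0.11 (SE, adjusted p = 0.2 by edgeR), and its recovery share was 27.0%. Jund, the subunit that resting cells also hold, had means of 10657 ± 698 (SD, n = 4), 7481 ± 453 (n = 3) and 8722 ± 958 (n = 4) in naive, ligature and removal. It was lower than naive (log2 fold change -0.29 ± 0.10 SE, adjusted p = 0.0393 in edgeR), a call lost with TMM factors (-0.092) and without any 1 of naive replicates 1, 2 and 3 and removal replicates 1, 2 and 3 (range -0.35 to -0.24).

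Among 16 early-response regulators of RNA decay, signalling and growth, 10 were lower than naive after removal (24.4% of the table) and 6 higher than ligature (17% of the table). Those that act on messenger RNA were Zfp36, Btg2 and Tob1. Zfp36 (ENSMUSG00000044786), which binds AU-rich elements and brings transcripts to decay, and whose CArG box is shown above, read 12079.7, 12316, 9919 and 12037 in the naive libraries, 5877, 5785 and 5985 with the ligature and 7950.2, 8835, 6868 and 9478 after removal. The 3 groups did not overlap. Its log2 fold change was -0.48 ± 0.11 (SE, adjusted p = 0.0119 by edgeR) against naive and 0.49 ± 0.12 (SE, adjusted p = 0.026 by edgeR) against ligature, which placed it at a recovery share of 50.5%.

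Btg2 (ENSMUSG00000020423), an antiproliferative protein that recruits the CCR4-NOT deadenylase and a target of p53, stayed lower. Its naive libraries read 5157, 5307, 5357 and 5624, the ligature libraries 3209, 3254 and 2718 and the removal libraries 3019, 4305, 3148 and 3803. The naive values were close together, all removal libraries lay under them, and removal replicates 1 and 3 lay within the ligature range. The log2 fold change against naive was -0.59 ± 0.12 (SE, adjusted p = 0.00778 by edgeR) and that against ligature 0.22 ± 0.12 (SE, adjusted p = 0.197 by edgeR), with a recovery share of 27.4%. Tob1, of the same protein family, had means of 3212 ± 314 in naive, 2379 ± 271 with the ligature and 2611 ± 284 after removal, lower than naive (log2 fold change -0.30 ± 0.11 SE, adjusted p = 0.046 in edgeR). That call was not made with TMM factors (-0.10) or in 7 of the 11 fits without 1 library, those leaving out any naive library, ligature replicate 3 or removal replicate 1 or 3 (range -0.34 to -0.23).

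**Figure D3:**
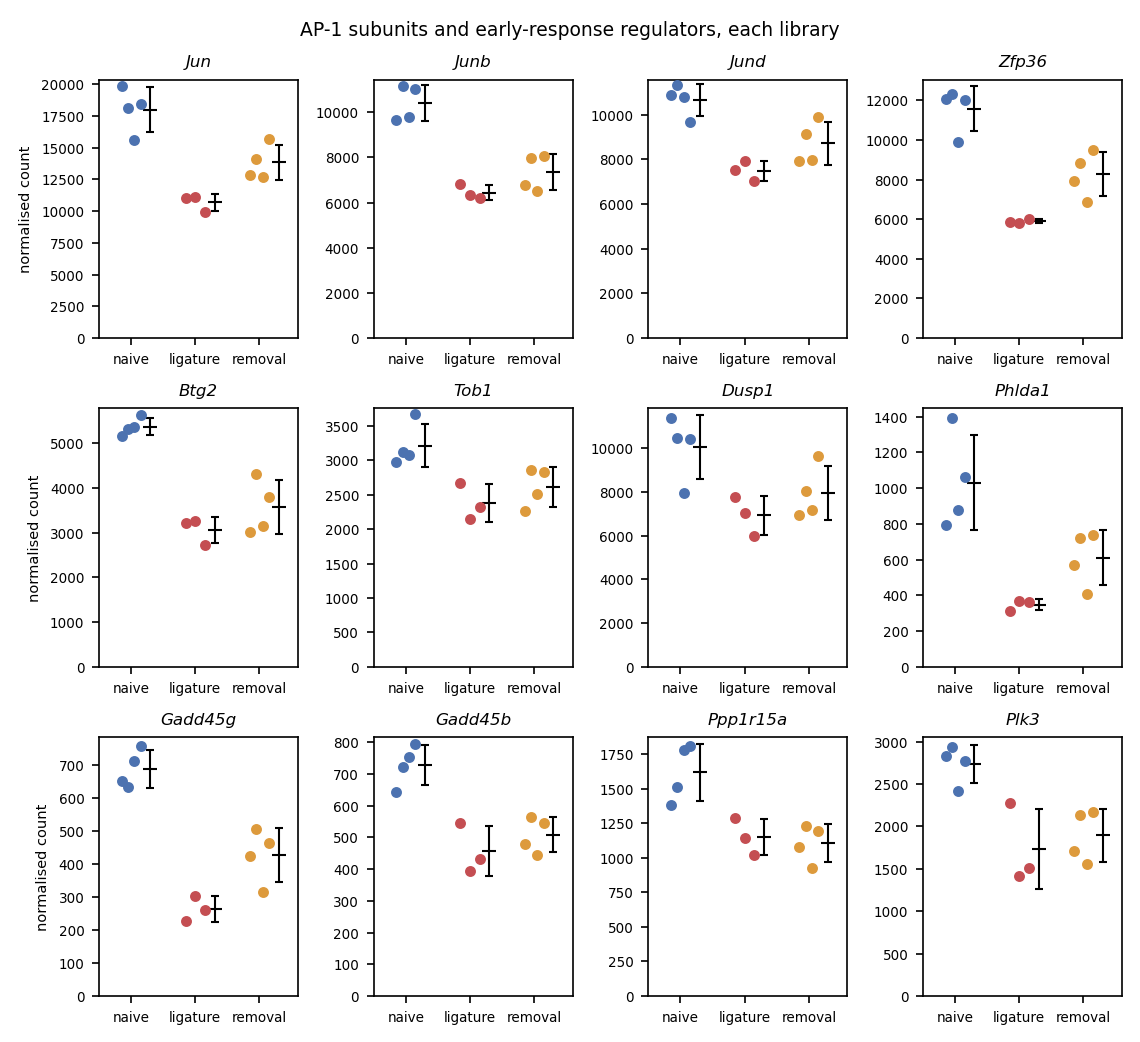
Normalised counts of 12 early-response genes, 1 point per library, with the group mean and SD as a black mark and bar; each vertical axis starts at 0. Zfp36 shows 3 groups that do not overlap, whereas Btg2, Junb and Ppp1r15a show removal libraries that all lie under the naive ones and reach into the ligature range.

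Of the phosphatases and their partners, Ppp1r15a (ENSMUSG00000040435), the regulatory subunit GADD34 that directs protein phosphatase 1 to the translation factor eIF2alpha, was the single gene whose removal mean lay under its ligature mean. It read 1386, 1510.3, 1779 and 1809 in the naive, 1287, 1144 and 1021 in the ligature and 1081, 1232, 929 and 1195 in the removal libraries. Every removal library was below every naive one, and removal replicate 3 was the lowest of all 11. Its log2 fold change was -0.55 ± 0.12 (SE, adjusted p = 0.0119 by edgeR) against naive and -0.053 ± 0.13 (SE, adjusted p = 0.754 by edgeR) against ligature, and its recovery share was -10.8%. Dusp1, which dephosphorylates the kinases p38 and JNK and whose cAMP response element is shown above, had 11400.3, 10453, 7949 and 10439.9 in the naive libraries, 7784, 7021 and 5972 with the ligature and 6932, 8048, 7156 and 9666 after removal. Removal replicates 2 and 4 lay within the naive range and removal replicates 1 and 3 within the ligature range. Neither comparison passed for Dusp1, at -0.34 ± 0.14 (SE, adjusted p = 0.0702 by edgeR) against naive and 0.20 ± 0.15 (SE, adjusted p = 0.326 by edgeR) against ligature.

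The growth arrest and stress genes Gadd45g and Gadd45b, whose products bind and activate the kinase MTK1, were both lower than naive after removal, and Gadd45g also passed against ligature. Gadd45g read 651, 633, 712 and 757 in the naive, 227, 304 and 261 in the ligature and 423, 507, 316 and 465 in the removal libraries, 3 groups without overlap. It was lower than naive (log2 fold change -0.69 ± 0.15 SE, adjusted p = 0.0119 in edgeR) and higher than ligature (log2 fold change 0.70 ± 0.16 SE, adjusted p = 0.0236 in edgeR). Gadd45b had means of 728 ± 63.7, 458 ± 79.5 and 509 ± 56.0 in naive, ligature and removal and was lower than naive (log2 fold change -0.52 ± 0.13 SE, adjusted p = 0.0124 in edgeR), with 0.15 ± 0.14 (SE, adjusted p = 0.368 by edgeR) against ligature, the ligature and removal libraries overlapping. Whether the recovery of the pair differs was not tested.

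Kinases of the stress response and the cell cycle fell on both sides. Plk3, a polo-like kinase activated by stress, was lower than naive, with means of 2737 ± 226, 1732 ± 472 and 1893 ± 309 in naive, ligature and removal (log2 fold change -0.53 ± 0.16 SE, adjusted p = 0.0233 in edgeR). Fits that left out naive replicate 1, 2 or 4, or removal replicate 1 or 3, did not call it (range -0.60 to -0.45). Plk2, a relative with a cAMP response element shown above, was not called against naive (log2 fold change -0.14 ± 0.12 SE, adjusted p = 0.318 in edgeR) and was higher than ligature (log2 fold change 0.48 ± 0.13 SE, adjusted p = 0.0276 in edgeR), from 1267 ± 139 to 1761 ± 223, near its naive mean of 1947 ± 257. Wee1, the kinase that holds CDK1 inactive before mitosis, read 248, 294, 288 and 257 in the naive, 195, 182 and 232 in the ligature and 309, 273, 369.5 and 360.0 in the removal libraries. All removal libraries lay above all ligature libraries, and 3 of the 4 above the highest naive library. It was higher than ligature (log2 fold change 0.69 ± 0.15 SE, adjusted p = 0.0221 in edgeR), and its recovery share of 165% was the highest of the 55. Against naive it stood at 0.27 ± 0.14 (SE, adjusted p = 0.107 by edgeR), and with TMM factors at 0.47, called higher (edgeR adjusted p = 0.0275).

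Rhob, a small GTPase of endosomes, was higher than ligature (log2 fold change 0.42 ± 0.12 SE, adjusted p = 0.0276 in edgeR), with means of 2676 ± 409.7, 1628 ± 115 and 2185 ± 166 in naive, ligature and removal. All its removal libraries lay under all naive ones, the highest at 2279 against a lowest naive library of 2292. Rhob was called lower than naive with the set term and not without it. Rasd1, a Ras-like GTPase induced by glucocorticoids, was lower than naive (log2 fold change -0.66 ± 0.22 SE, adjusted p = 0.0362 in edgeR), with 96.0, 85.3, 76.6 and 101 in the naive, 40.9, 61.3 and 50.2 in the ligature and 67.0, 56.6, 43.6 and 60.1 in the removal libraries; it was not called with TMM factors (-0.45) or in fits lacking naive replicate 1, 2 or 4 or removal replicate 2, 3 or 4 (range -0.74 to -0.55). Phlda1, which carries a pleckstrin homology-like domain, read 792, 1391, 875 and 1061 in the naive, 311, 367 and 362 in the ligature and 569, 723, 409 and 737 in the removal libraries. The 3 groups did not overlap for Phlda1, which was lower than naive (log2 fold change -0.76 ± 0.20 SE, adjusted p = 0.0151 in edgeR) and higher than ligature (log2 fold change 0.82 ± 0.23 SE, adjusted p = 0.0276 in edgeR). Ier2, an early-response nuclear protein, was lower than naive (log2 fold change -0.39 ± 0.10 SE, adjusted p = 0.0124 in edgeR); with TMM factors it was at -0.19, not called. Its relative Ier5 (-0.22) and the pseudokinase Trib1 (-0.16), a scaffold for the ubiquitin ligase COP1, did not pass against naive.

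A list of 72 rapid-response gene names, to which many of these genes belong, had 19 genes in the table, of which 18 are members. After removal 13 of the 19 were lower than naive and 0 higher (24.4% of the table lower), with a median log2 fold change of -0.39. Against ligature 6 of the 19 were higher and 0 lower (17% of the table higher), with a median of 0.25. The single gene of the list outside the 55 was Zfp36l1, a relative of Zfp36. The choice of members fixes most of this list, so its counts describe the same genes again.

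Of 4 genes that act on transcription in the nucleus, 1 was lower than naive and 1 higher than ligature, counts close to the table's shares of 24.4% and 17%. Ppp1r10, the nuclear subunit PNUTS of protein phosphatase 1, had closely spaced naive libraries (1857, 1931, 1966 and 1967), ligature libraries at 1513, 1242 and 1311 and removal libraries at 1359, 1637, 1518 and 1440.2. Every removal library was under every naive one. The gene was lower than naive (log2 fold change -0.37 ± 0.087 SE, adjusted p = 0.0119 in edgeR), called in all 11 fits without 1 library, and with TMM factors it stood at -0.18, not called. Tcim, a small protein of Wnt and beta-catenin signalling, was higher than ligature (log2 fold change 0.46 ± 0.12 SE, adjusted p = 0.0276 in edgeR), with removal replicate 1 the lowest removal library at 1078 against a highest ligature library of 1035. Its removal libraries also all lay under the naive ones, the highest at 1519 against a lowest naive library of 1525. Tcim was called lower than naive with the set term and not without it. Churc1, a zinc-binding regulator of the response to fibroblast growth factor, did not pass against naive (-0.25) or ligature (0.45). The row named 7SK stands for a noncoding RNA that holds the elongation factor P-TEFb inactive; it belongs to a family of near-identical copies and is not polyadenylated, its naive libraries spread from 300.5 to 811.8, and its value is uncertain.

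Among 7 genes of the matrix, of proteases and of surface signalling, 3 were lower than naive (24.4% of the table) and 1 higher than ligature (17% of the table). Ccn1, a secreted matrix protein that binds integrins, read 1006, 978, 1474 and 1603 in the naive, 476, 937 and 549 in the ligature and 858, 795, 555 and 931 in the removal libraries. The values followed the library sets in part: naive replicates 3 and 4 and ligature replicate 2, all of set B, were the highest of their groups. Its log2 fold change against naive was -0.69 ± 0.24 (SE, adjusted p = 0.0423 by edgeR) and with the set term -0.53 (edgeR adjusted p = 0.0298), while it was not called with TMM factors (-0.50) or without naive replicate 3 or 4, ligature replicate 3 or removal replicate 1, 2 or 3 (range -0.79 to -0.55).

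Rgma, a membrane-anchored co-receptor for bone morphogenetic proteins, stayed near its ligature level. It read 709, 935, 642 and 788 in the naive, 504, 547 and 546 in the ligature and 509, 602, 548 and 585 in the removal libraries. Every removal library was under every naive one and the removal and ligature libraries overlapped. Against naive it was lower (log2 fold change -0.45 ± 0.12 SE, adjusted p = 0.0127 in edgeR), called in all 11 fits without 1 library and not with TMM factors (-0.25), and stood at 0.077 ± 0.13 (SE, adjusted p = 0.635 by edgeR) against ligature, a recovery share of 14.4%. Pmepa1, a membrane protein that dampens SMAD signalling downstream of TGF-beta, lay at the other end, with 632, 821, 709 and 768 in naive, 325, 514 and 555 in ligature and 619, 730.1, 719 and 854 in removal libraries. The removal libraries spanned the naive range and lay above all ligature ones. It was higher than ligature (log2 fold change 0.65 ± 0.18 SE, adjusted p = 0.0276 in edgeR), at a recovery share of 99.4%, and stood at -0.0035 ± 0.16 (SE) against naive.

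The remaining proteases passed in neither comparison without the set term. Adamts1, a metalloproteinase that cleaves proteoglycans, varied widely, with 488, 504, 1124 and 801 in the naive, 243, 514 and 370.1 in the ligature and 725, 292, 274 and 443 in the removal libraries. Its highest library in each group was of set B (naive replicate 3, ligature replicate 2 and removal replicate 1). It stood at -0.75 ± 0.36 (SE, adjusted p = 0.0959 by edgeR) against naive and 0.21 ± 0.39 (SE, adjusted p = 0.666 by edgeR) against ligature. With the set term it was lower than naive (-0.51, adjusted p = 0.0236 in edgeR) and higher than ligature (0.58, adjusted p = 0.0452 in edgeR). Tmprss4, a serine protease of epithelial membranes, read 1563, 1691, 795 and 1401 in the naive, 930.4, 621 and 776 in the ligature and 872, 1426, 1419 and 1436 in the removal libraries. Naive replicate 3 and removal replicate 1 were far under the rest of their groups, and both are of set B. It stood at -0.081 ± 0.23 (SE, adjusted p = 0.777 by edgeR) against naive, a value that turned positive with each other scaling tried (0.13 with TMM factors), and at 0.73 ± 0.25 (SE, adjusted p = 0.0605 by edgeR) against ligature. Within the sets the removal mean was below the naive mean in both, by a log2 difference of -0.19 in set A and -0.33 in set B, and with the set term the value was -0.23 (adjusted p = 0.197 in edgeR). Cpn1, the catalytic subunit of carboxypeptidase N, stood at -0.41 against naive and 0.50 against ligature on the log2 scale.

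Lce3d, a late cornified envelope protein of the outermost keratinocytes, had a removal mean close to its naive mean. Within the library sets its log2 difference of removal from naive was 0.046 in set A and -0.30 in set B. It read 603, 585, 371 and 685 in the naive, 377, 261 and 298 in the ligature and 429.9, 679, 703 and 459 in the removal libraries. Every removal library was above every ligature one, and removal replicates 1 and 4 were lower than removal replicates 2 and 3. Its log2 fold change was 0.86 ± 0.24 (SE, adjusted p = 0.0276 by edgeR) against ligature and 0.014 ± 0.21 (SE, adjusted p = 0.967 by edgeR) against naive. Krt10, the suprabasal keratin in the table, moved the other way, with means of 93534 in naive, 145632 in ligature and 132468 in removal.

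**Figure D4:**
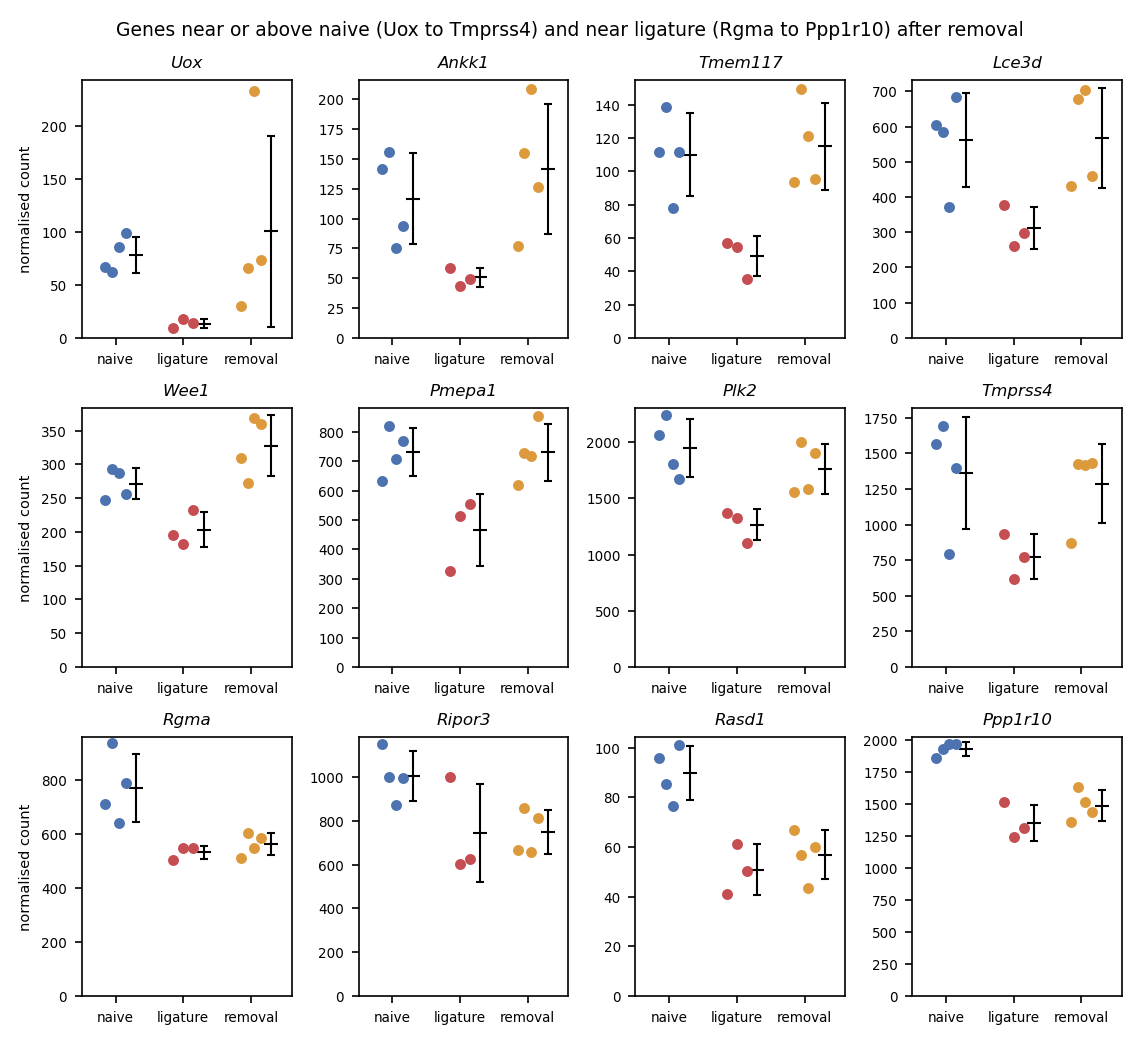
Normalised counts of 12 genes, 1 point per library, with the group mean and SD in black; each vertical axis starts at 0. The first 8 (Uox to Tmprss4) have removal means near or above naive, and in the last 4 (Rgma, Ripor3, Rasd1 and Ppp1r10) the removal libraries lie near the ligature ones.

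Among genes of metabolism and transport, Uox, Ankk1 and Tmem117 had removal means above their naive means, and Slc34a3 was lower than naive. The first result depended on the library sets. Within sets A and B the log2 difference of removal from naive was 0.93 and -1.59 for Uox. The values were 0.13 and -0.13 for Ankk1, and -0.037 and -0.014 for Tmem117. Uox, the peroxisomal enzyme that oxidises uric acid, read 67.5, 62.0, 85.8 and 99.3 in the naive, 9.37, 17.5 and 13.9 in the ligature and 30.1, 65.9, 233 and 74.2 in the removal libraries. Removal replicate 3 stood far above every other library and removal replicate 1 under all naive ones, while all removal libraries exceeded all ligature ones. It was higher than ligature (log2 fold change 2.88 ± 0.62 SE, adjusted p = 0.0221 in edgeR), and without removal replicate 3 by 2.06, also called; the fits that lost the call were those without 1 of the ligature libraries or without removal replicate 2 or 4 (range 2.06 to 3.18). Against naive it stood at 0.36 ± 0.49 (SE, adjusted p = 0.544 by edgeR), with a sign that depended on a library (range -0.46 to 0.65). In the annotation Uox overlaps Dnase2b on the other strand, and no source used here gives the strand setting of the counting.

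Ankk1, a kinase with ankyrin repeats, read 141, 156, 75.3 and 94.0 in the naive, 58.8, 43.8 and 49.3 in the ligature and 77.0, 154, 208 and 126 in the removal libraries. As with Uox, removal replicate 3 was the highest library of the 11 and every removal library lay above every ligature one. It was higher than ligature (log2 fold change 1.48 ± 0.35 SE, adjusted p = 0.0238 in edgeR) and stood at 0.27 ± 0.31 (SE, adjusted p = 0.451 by edgeR) against naive. Tmem117, a membrane protein, had means of 110.0 ± 24.8, 49.0 ± 11.9 and 115 ± 26.1 in naive, ligature and removal and was higher than ligature (log2 fold change 1.23 ± 0.27 SE, adjusted p = 0.0221 in edgeR). Slc34a3, a sodium-phosphate cotransporter best known from the kidney, was lower than naive (log2 fold change -1.26 ± 0.42 SE, adjusted p = 0.0371 in edgeR), with 99.2, 82.3, 87.1 and 94.0 in the naive, 34.1, 21.4 and 5.58 in the ligature and 27.9, 61.8, 24.0 and 37.1 in the removal libraries. The naive libraries were tightly grouped and removal replicate 2 stood above the other removal libraries. The call was lost with TMM factors (-1.07) and without any naive library or removal replicate 1, 3 or 4 (range -1.60 to -1.10). The sugar transporter gene Slc5a9 stood at -0.26 against naive, not called.

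Alpk2, an alpha-kinase, was lower than naive (log2 fold change -0.55 ± 0.20 SE, adjusted p = 0.046 in edgeR), a call lost with TMM factors (-0.36) and in 10 of the 11 fits without 1 library, all but that without ligature replicate 1 (range -0.62 to -0.41). Ripor3, a protein that interacts with small GTPases, lay at its ligature level on the mean, with 1149, 1002, 871 and 996 in the naive, 1000.3, 604 and 624 in the ligature and 667, 858, 657 and 815 in the removal libraries. All removal libraries were below all naive ones, and ligature replicate 1 lay among the naive libraries. It passed in neither comparison, with -0.42 ± 0.17 (SE, adjusted p = 0.0593 by edgeR) against naive, at a recovery share of 2.79%. Rab31, a GTPase of vesicle traffic, and Cd68, the macrophage lysosomal glycoprotein, passed in neither, with -0.19 and -0.37 against naive. Cd68 had means of 287 ± 54.6, 179.7 ± 10.2 and 222 ± 14.2 in naive, ligature and removal, and the other 4 macrophage markers on the list were not in the table.

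Of 4 genes for RING finger or Cullin-3 related proteins, 1 was lower than naive, close to the table's share of 24.4%. This gene was Rnf224. It read 638, 557, 448 and 566 in the naive, 281, 164 and 214 in the ligature and 306, 369, 253 and 389 in the removal libraries, and every removal library was under every naive one. The difference from naive was -0.75 ± 0.18 (SE, adjusted p = 0.0124 by edgeR), called in all 11 fits without 1 library and with TMM factors. Rnf223 stood at -0.39, Abtb2 at -0.23 and Klhl2, a substrate adaptor of Cullin-3, at -0.12, none of them called.

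The 5 genes best known from sperm or from the axoneme of cilia included the largest differences. Against naive, 3 of the 5 were lower after removal (24.4% of the table) and 0 of the 5 were higher than ligature (17% of the table). Fam71a, expressed mainly in testis, read 21.1, 25.2, 81.9 and 148 in the naive, 0.852, 3.89 and 0.930 in the ligature and 3.35, 7.21, 3.27 and 13.2 in the removal libraries. Naive replicates 3 and 4 were several times above naive replicates 1 and 2, and ligature counts were at or near single reads. The difference from naive was -3.28 ± 0.71 (SE, adjusted p = 0.0119 by edgeR), and with the set term -2.52 (edgeR adjusted p = 0.00693).

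Iqcn, which makes a calmodulin-binding protein of developing sperm, read 62.2, 78.5, 111 and 104 in the naive, 18.7, 13.6 and 12.1 in the ligature and 19.0, 31.9, 24.0 and 30.5 in the removal libraries. The removal libraries were all under the naive ones, and removal replicate 1 lay just above the highest ligature library. It was lower than naive (log2 fold change -1.74 ± 0.29 SE, adjusted p = 0.00778 in edgeR). Tmem95, a sperm membrane protein of egg fusion, was lower than naive (log2 fold change -0.83 ± 0.23 SE, adjusted p = 0.0166 in edgeR), with means of 356 ± 37.0, 159 ± 45.2 and 199.9 ± 58.7 in naive, ligature and removal. Stpg3 (log2 fold change -1.42 ± 0.54 SE, adjusted p = 0.0545 in edgeR), with sperm-tail repeats, and Dnah10 (log2 fold change -0.66 ± 0.31 SE, adjusted p = 0.0959 in edgeR), an inner arm dynein, did not pass. A list of 8 cilium and sperm gene names had 3 in the table, Iqcn, Stpg3 and Fam71a, with 2 lower than naive (24.4% of the table). The other names were not in the table.

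Several of these genes lie directly behind an early-response gene. In GENCODE vM21, 5 of the 54 annotated members were the next gene downstream, on the same strand, of another gene of the table, and 1 lay inside one. These were Fam71a behind Atf3, Gm26802 behind Fosb, Iqcn behind Jund, Slc34a3 behind Rnf224, Gm34455 behind Dusp1, and Gm17024 inside Ifrd1. Among the 123 other annotated genes of the table there was 1 (Hspa1b behind Hspa1a). Of all 55404 annotated genes, 200 (0.361%) were the next downstream of a gene of the table.

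In each of the 6 pairs the downstream or inner gene had the larger difference from naive. With the ligature Fam71a stood at -4.60 on the log2 scale of means plus 1 and Atf3 at -2.03; after removal the values were -3.17 and -1.36. Gm26802 stood at -2.59 and -1.74 beside Fosb at -1.36 and -0.80. Iqcn stood at -2.51 and -1.72 beside Jund at -0.51 and -0.29. The order was the same, with smaller gaps, in the other 3 pairs: with the ligature, -2.10 beside -1.32 for Slc34a3 and Rnf224, -1.05 beside -0.54 for Gm34455 and Dusp1, and -1.05 beside -0.48 for Gm17024 and Ifrd1. The downstream and inner genes have far fewer counts than their partners, and whether reads running past the end of the upstream gene contribute to them was not tested.

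**Figure D5:**
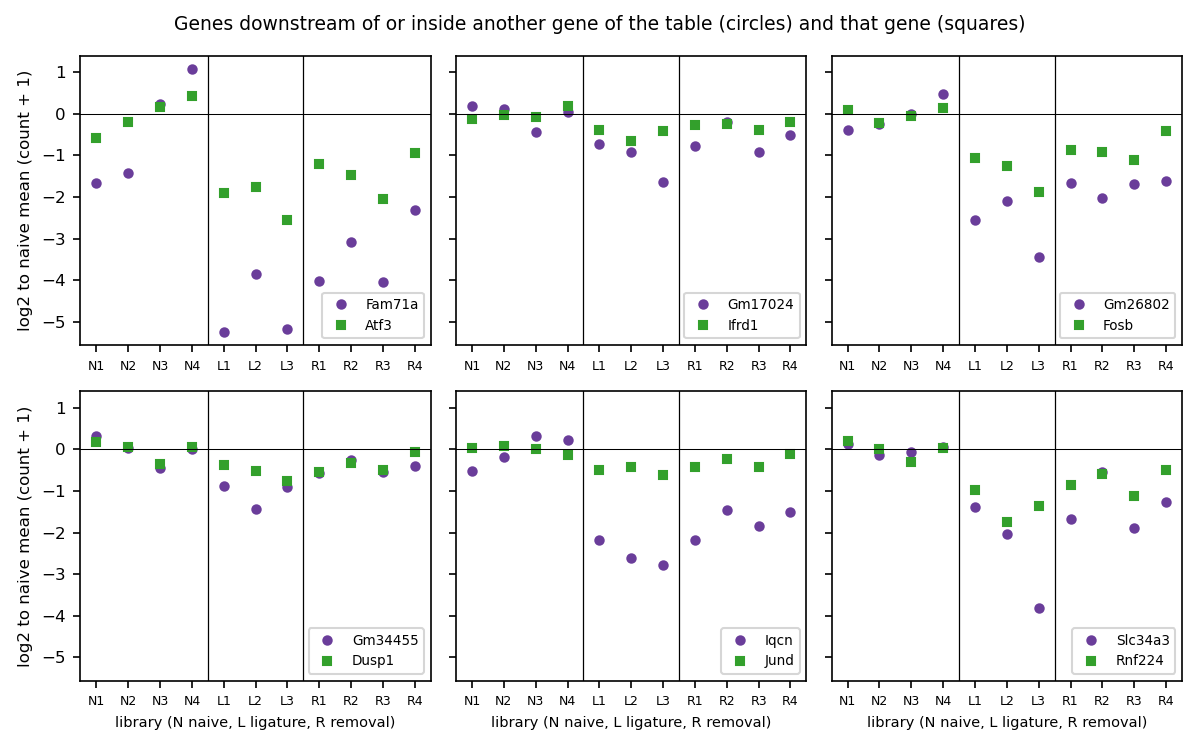
For 6 pairs of neighbouring genes, the log2 of each library's normalised count plus 1 over the naive mean plus 1 is shown, with the downstream or inner gene as circles and its upstream or host gene as squares. In each pair the circles of the ligature libraries lie mostly under the squares, by most for Fam71a, whose naive libraries also spread widely.

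The 6 predicted genes and Rik clones had recovery shares of 32.8% to 58.6%, and 3 of them (Gm26802, Gm47111 and Gm43735) were lower than naive after removal (24.4% of the table). The calls of Gm47111 and Gm43735 were lost with TMM factors and in 9 and 5 of the 11 fits without 1 library. Of the 54 annotated members 48 were protein coding in the reference. In all, 23 overlapped another annotated gene and 19 of these did so on the opposite strand, among them Jun with Junos, Junb with Prdx2, Plk3 with Tctex1d4 and Ppp1r15a with Tulp2. Without the strand setting, reads of such partners cannot be told apart from those of the members.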

How the data were processed

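RNA was measured in 11 libraries of gingival epithelium. The authors deposited 1 table with 178 named genes (993161 of its 993339 rows were empty). It gave raw counts; normalised counts, a signal that equals the deposited raw count divided by 1 size factor per library (0.757 to 1.21); and batch-corrected values, a deposited score on the same scale with 7 values below 0. Per the submitters' processing notes the tools were DESeq2 1.36.0, HTSeq 2.01, TopHat2 2.1.1 and cutadapt 2.10, with the build GRCm39; roles are not stated. How batches were corrected and which strand setting was used is not given in the sources used here.

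Groups came from the sample titles. The labels do not name animals, so the p-values reflect variation among libraries only, which may be technical. Libraries of a group differed beyond counting noise (chi-square over degrees of freedom at least 20.4). The depth of whole libraries is unknown.

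The test was edgeR's quasi-likelihood test (edgeR 4.0.16 in R 4.3.3) on raw counts of the 11 libraries together, scaled by the deposited size factors, with filterByExpr. Two-sided p-values were adjusted by Benjamini-Hochberg over 176 genes and called under 0.05. The fit was tested on simulated data with the same spread beyond counting noise for every gene and no library set effect. Its calibration on libraries such as these was not tested. Library sets were read from the deposited correction, as the best of 957 divisions (median residual 7.84e-05%, against 4.02% for the next). DESeq2 was version 1.42.0. Promoter windows are from RefSeq (GRCm38.p6) and gene neighbours from GENCODE vM21, of an older build than the counts, so coordinates are given for the promoter windows alone, in that build. Identifiers of 54 of the 55 genes matched the reference names.

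The members and lists were chosen with earlier results of these data known. The rule for genes described was the 8 with the smallest ligature to naive ratio, the 8 highest and 8 lowest recovery shares among genes with a mean of 50 or more, the 6 with the highest mean, up to 4 of each list and those next to the threshold. It named 29 members; others were named after their values had been seen. Gene lists without a gene in the table (5 of 10) are not described. For 1 member, which is included in the counts, values are not reported here.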

Additional observations from a re-analysis of the deposited data

Results flagged for a closer look

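In 4 of 110 groups of 4 libraries (55 genes, naive and removal), the lowest library stood apart from the other 3 by Dixon's test at the 95% level, which chance does in about 1 in 20 groups. Tmprss4, the membrane serine protease, had 872.1 normalised counts in removal replicate 1, against 1419 to 1436 in the other removal libraries. The Rik clone 2310034O05Rik had 62.53 in the same library, against 75.2 to 77.4. Rhob, the endosomal small GTPase, had 1936 in removal replicate 3, against 2253 to 2279. Zfp36, the factor of messenger RNA decay, had 9919 in naive replicate 3, against 12037 to 12316 in the other naive libraries, and remained above every removal library.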

How the results depend on the processing

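Of the 55 genes, 26 were called between removal and naive. The count was 15 with TMM factors over the table, 16 with upper-quartile and 19 with median-of-ratios factors (1 of them higher in each), 32 with DESeq2, 43 with the library set term, and 15 to 28 when 1 library was left out. The table's calls in either direction moved as well, from 66 of 176 to 72 with TMM factors. They were 68 with upper-quartile and 68 with median-of-ratios factors, and 81 of 178 with DESeq2. With the set term they were 126, and 38 to 78 when 1 library was left out. Between removal and ligature 13 were called, with 6 under TMM, 5 under median-of-ratios factors, 20 with DESeq2, and 0 to 17 when 1 library was left out. For the table these counts were 35 of 176, then 29, 46, 51 of 178 with DESeq2, and 0 to 49 when 1 library was left out. Against the midpoint the count was 0, with 3 under DESeq2 and 0 to 2 when 1 library was left out. The table had 0 calls there, with 13 of 178 under DESeq2 and 0 to 4 when 1 library was left out. The cause of these changes was not tested. Tmprss4 against naive changed sign from -0.08, to 0.13 with TMM, 0.079 with median-of-ratios and 0.085 with upper-quartile factors, 0.039 without naive replicate 2 and 0.065 without removal replicate 1 (lowest without 1 library -0.27); it was called in none. The median recovery share was 45.1%, with 37.4% on a linear scale, 42.1% from batch-corrected values and 38.7% to 52.1% without 1 library.

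With the replicate number of the titles as a replicate block, 18 genes were called against naive and 4 against ligature, where the table had 31 lower and 18 higher against naive and 7 higher and 1 lower against ligature. Of 10 pairs with the same number, 2 had a correlation of deviations from group means above 0.1 (median -0.15). The correlation followed the library sets, with 16 of 19 pairs within a set and 0 of 21 pairs across sets above 0.1. Most pairs with the same number were across sets, so whether the numbers pair the libraries could not be told. The design limits precision to 3 or 4 libraries a group, and genes with means under about 50 counts, such as Fam71a in the removal group, are the least precise.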
